A study of Homo sapiens with 36 samples.

Results

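The WNT ligands, Frizzled receptors and secreted WNT antagonists made up 39 of the 20163 protein-coding genes annotated on the nuclear chromosomes of hg19. They were taken by name and not by any measured value, though with earlier results of these data known. The set held the 19 WNT genes, the 10 FZD genes, and 10 antagonists, which were SFRP1, SFRP2, SFRP4, SFRP5, DKK1, DKK2, DKK3, DKK4, WIF1 and FRZB. Each gene was followed from 2.5 kb upstream of its annotated start to its end, and a peak or region that overlapped this interval was counted for the gene.

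PHF19 is an accessory subunit of Polycomb repressive complex 2 (PRC2), and the series addressed how its long isoform bears on PRC2 in prostate cancer cells. Chromatin immunoprecipitation and sequencing (ChIP-seq) was carried out in DU145, an established human prostate cancer line, after transduction with a control hairpin (shCTR) or with shPHF19L#4, a hairpin against the long isoform of PHF19. The precipitated targets were PHF19 and EZH2 (antibodies from Cell Signaling), SUZ12 (Abcam), H3K27me3 (Millipore) and MTF2 (Proteintech), with 2 replicates of each. An antibody to Drosophila H2Av (Active Motif), used with fly chromatin as a spike-in, was labelled for replicate 1 of EZH2 and SUZ12, for replicate 2 of PHF19, and for both replicates of H3K27me3 and MTF2. The paper differs from these labels. It describes the spike-in for H3K27me3, EZH2, MTF2 and SUZ12 without naming PHF19, and it scales the second replicate of EZH2 and SUZ12 by fly reads.

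In these ChIP-seq data the knockdown rested on 1 hairpin in 1 cell line, with no other treatment labelled. Peak positions carry no marker of cell identity, so the line could not be checked against its label. No PHF19 peak list of shPHF19L#4 cells was deposited, so the depletion of PHF19 from chromatin could not be checked here either. The paper itself reports that the PHF19 ChIP signal fell strongly in shPHF19L#4 cells. Its ChIP-qPCR at selected sites also used another hairpin, shPHF19L#B, for PHF19, EZH2, H3K27me3 and MTF2. The shPHF19L#4 peaks of PHF19, EZH2 and SUZ12, the inputs and the RNA-seq libraries had no processed file of their own and were not analysed here.

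WNT proteins are secreted, lipid-modified ligands that bind Frizzled receptors and a co-receptor at the cell surface, and the signal either stabilises beta-catenin or runs through beta-catenin-independent branches. Secreted Frizzled-related proteins and WIF1 bind the ligands outside the cell, whereas most Dickkopf proteins bind the LRP co-receptors. In prostate cancer the pathway is known for its links to invasion, to bone metastasis and to growth without androgen, and many WNT genes are classical Polycomb targets in embryonic cells, where EZH2 and SUZ12 within PRC2 place H3K27me3 and MTF2 or PHF19 help to recruit the complex.

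The data were 14 peak lists and 5 tables. The lists held 1072 and 14218 peaks for PHF19 in shCTR (replicates 1 and 2, in that order throughout), 2060 and 1236 for EZH2, and 1523 and 232 for SUZ12. H3K27me3 lists held 39254 and 15994 peaks in shCTR and 35128 and 57026 in shPHF19L#4, and MTF2 lists held 2516 and 32254 in shCTR and 4216 and 34623 in shPHF19L#4. A region of EZH2, SUZ12, H3K27me3 or MTF2 was a stretch of overlapping peaks with at least 1 peak from each replicate, and a PHF19 region was any of the 1245 regions that the authors' DiffBind table lists against input. The other 4 tables list regions by the authors' mean log2 read concentration in shCTR and in shPHF19L#4, and a region with the larger mean in shPHF19L#4 is called listed higher. Each of these 4 files has 2 header lines, which name the second concentration input and knockdown; it was read as shPHF19L#4, after the file names and the second line, and all differences rest on that reading. These tables hold only regions under a p threshold of the authors and no value per replicate, so a gene without a listed region was not thereby shown to be equal in both conditions. With 2 libraries against 2 the smallest two-sided exact p is 0.333, so no test was run and all comparisons are of values.

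A PHF19 region lay at 7 of the 39 members, against 4.64% of all protein-coding genes. They were 5 of 19 ligands (WNT1, WNT3A, WNT6, WNT7A and WNT16), 1 of 10 receptors (FZD8) and 1 of 10 antagonists (WIF1). The number depended on the library: the replicate 1 list had peaks at 4 members, all ligands, against 3.78% of all genes, and the far longer replicate 2 list had peaks at 26 members, against 23.4%. Peaks from both replicates overlapped at 4 members, which were WNT1, WNT6, WNT7A and WNT16, against 3.35% of all genes. In the replicate 2 list 17 ligands, 6 receptors and 3 antagonists had a peak.

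EZH2 regions in shCTR were found at 4 ligands (WNT1, WNT3A, WNT6 and WNT7A) and at no receptor or antagonist, against 2.22% of all genes. All 4 carried a PHF19 region as well, as did 402 of the 448 genes with an EZH2 region over the genome. Replicate 1 alone had EZH2 peaks at the same number of members, 4, against 3.27% of all genes, and replicate 2 alone at 11 members (8 ligands, 1 receptor and 2 antagonists), against 5.04%. No member held a SUZ12 region of both replicates, against 0.253% of all genes, while replicate 1 alone had peaks at 2 members (WNT6 and WNT7A), against 1.10%, and replicate 2 alone at 1 member (WNT1), against 0.972%.

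H3K27me3, the mark that PRC2 leaves on chromatin, had regions of both replicates at more members than any protein, although in the replicate 2 lists MTF2 had peaks at more in both conditions, and PHF19 in shCTR. In shCTR 17 members held an H3K27me3 region, 13 of 19 ligands, 2 receptors and 2 antagonists, against 13.2% of all genes. Single lists had peaks at 21 members in replicate 1 and at 19 in replicate 2, against 19.6% and 14.8% of all genes. In shPHF19L#4 the region count was 18 (13 ligands, 2 receptors and 3 antagonists), against 18.7%. Here replicate 1 alone gave 18 members against 19.2% of all genes, and replicate 2 alone gave 28 members against 29.0%. By class this was 68.4% of ligands and 2 of 10 receptors in both conditions, with 2 of 10 antagonists in shCTR and 3 of 10 in shPHF19L#4. The 13 ligands were not the same, as WNT16 had a region in shCTR only and WNT5A in shPHF19L#4 only.

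MTF2 regions in shCTR lay at 10 members, against 5.0% of all genes, and in shPHF19L#4 at 16 members, against 9.81%. By class these were 8 ligands, FZD8 and SFRP5 in shCTR, and 13 ligands, FZD8, SFRP5 and WIF1 in shPHF19L#4. All 10 members with an MTF2 region in shCTR had one in shPHF19L#4, and the 6 found in shPHF19L#4 only were WNT2, WNT4, WNT5B, WNT10A, WNT10B and WIF1. The replicate 1 lists set these numbers: alone they gave 10 members in shCTR (5.86% of all genes) and 16 in shPHF19L#4 (10.5%). Replicate 2 alone had MTF2 peaks at 31 members in shCTR and at 30 in shPHF19L#4, where 49.5% and 51.0% of all genes had one, so the increase in members was seen in replicate 1 only.

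**Figure D1:**
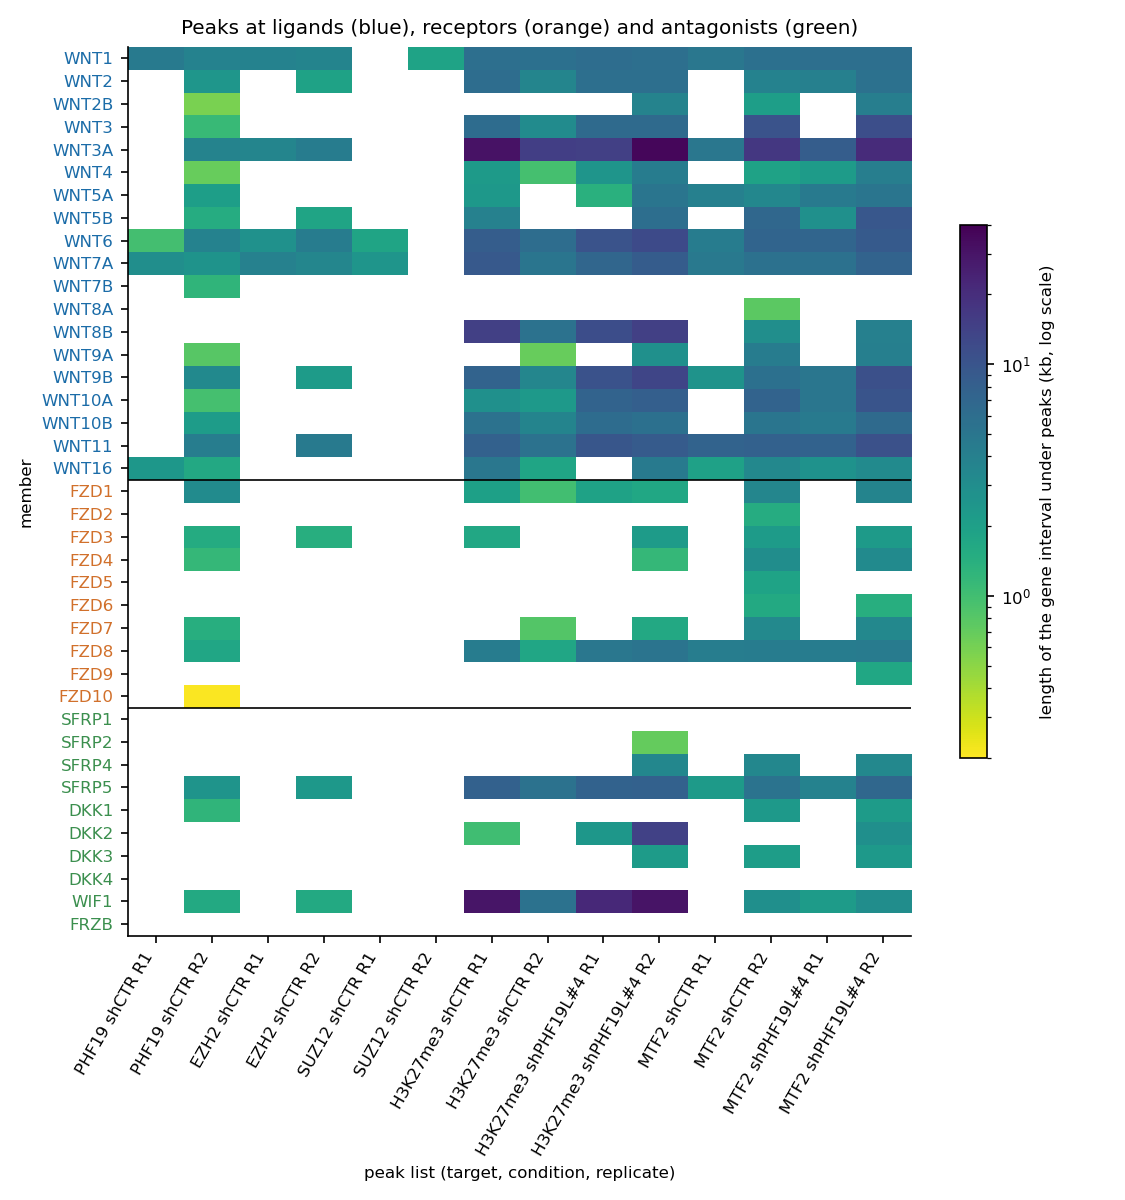
Length of each member's interval under peaks (kb, log colour scale) in each of the 14 peak lists, with ligands in blue, receptors in orange and antagonists in green; white marks no peak. WNT1, WNT6 and WNT7A had peaks in 13 of 14 lists, and SFRP1, DKK4 and FRZB in none.

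In the tables of shPHF19L#4 against shCTR every listed region at a member had the larger mean in shPHF19L#4, as had nearly all listed regions of the genome. An EZH2 region was listed higher at 17 members (14 ligands, FZD8, SFRP5 and WIF1), against 9.54% of all genes, and an MTF2 region at 16 members (13 ligands, FZD8, SFRP5 and WIF1), against 9.01%. SUZ12 regions were listed higher at 6 members (5 ligands and FZD8), against 2.44%, and H3K27me3 regions at 5 members (4 ligands and FZD8), against 3.53%. With a log2 difference of at least 1 these counts were 15, 6, 3 and 3 for EZH2, MTF2, SUZ12 and H3K27me3, against 7.60%, 3.08%, 1.17% and 2.93% of all genes, and the H3K27me3 count was also 3 when only 2.5 kb to each side of the gene start was searched, against 2.24% of all genes in that window. For the receptors, 1 of 10 was close to the share of all genes for EZH2 and MTF2.

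**Figure D2:**
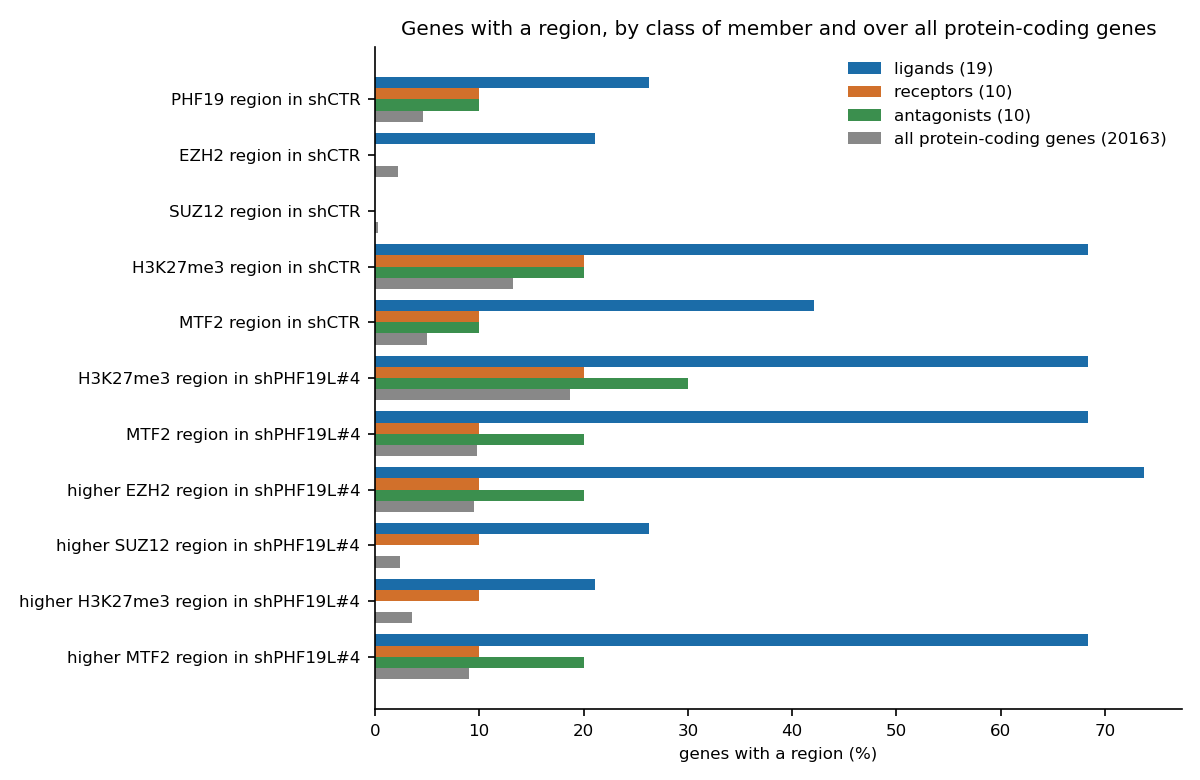
Share of genes with a region (%) for the 19 ligands, the 10 receptors, the 10 antagonists and all 20163 protein-coding genes, for each target and condition and for regions listed higher in shPHF19L#4. Ligands had the longest bar in every comparison except SUZ12 regions in shCTR, where no member had a region.

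The classes also differed in the length searched. The median gene length was 26657 bp for ligands, 5740 bp for receptors and 40438 bp for antagonists, beside 27219 bp for all protein-coding genes. Receptor genes therefore offered less sequence to overlap, and antagonists more. By the reference (MANE Select) transcript the medians were 21201, 5740 and 22125 bp for ligands, receptors and antagonists. A window of 2.5 kb to each side of the gene start had equal length in all classes. There EZH2 was listed higher at 10 ligands, 1 receptor and 2 antagonists, against 7.44% of all genes. MTF2 was at 11, 1 and 2, against 7.05%, SUZ12 at 4, 1 and 0, against 1.95%, and H3K27me3 at 2, 1 and 0, against 2.24%. The part of gene length in the class counts was not tested.

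Sequence was read from GRCh37 for the 200 bases just upstream of the MANE Select start, the start of the reference transcript, of 5 members. WNT7A, WNT16, FZD8 and WIF1 are shown because each stands for a class with a PHF19 region, WNT16 being the PHF19-marked ligand with the fewest CpG there, and FRZB because it had no peak in any list. The bases run 5′ to 3′ on the strand of the gene, in lower case with each CG dinucleotide in capitals, and none overlaps an annotated exon. They lie at chr3:13921569-13921768 on the minus strand for WNT7A, chr7:120968854-120969053 on the plus strand for WNT16, chr10:35931225-35931424 on the minus strand for FZD8, chr12:65515086-65515285 on the minus strand for WIF1 and chr2:183731366-183731565 on the minus strand for FRZB.
WNT7A: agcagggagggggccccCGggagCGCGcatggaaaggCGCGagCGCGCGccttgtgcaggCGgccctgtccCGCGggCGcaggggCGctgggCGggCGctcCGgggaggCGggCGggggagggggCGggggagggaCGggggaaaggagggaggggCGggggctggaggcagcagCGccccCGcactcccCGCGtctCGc
WNT16: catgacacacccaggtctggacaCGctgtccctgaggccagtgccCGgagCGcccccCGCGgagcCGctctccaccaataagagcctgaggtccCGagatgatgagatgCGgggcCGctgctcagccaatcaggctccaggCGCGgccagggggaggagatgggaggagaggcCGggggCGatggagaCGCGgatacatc
FZD8: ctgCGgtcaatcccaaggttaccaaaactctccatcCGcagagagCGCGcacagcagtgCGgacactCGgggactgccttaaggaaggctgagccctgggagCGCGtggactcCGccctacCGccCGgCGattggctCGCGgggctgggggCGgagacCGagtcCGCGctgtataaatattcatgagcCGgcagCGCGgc
WIF1: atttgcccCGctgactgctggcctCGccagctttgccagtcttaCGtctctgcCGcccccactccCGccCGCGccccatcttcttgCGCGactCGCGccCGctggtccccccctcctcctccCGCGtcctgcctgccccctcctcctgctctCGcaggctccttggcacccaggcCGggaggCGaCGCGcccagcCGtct
FRZB: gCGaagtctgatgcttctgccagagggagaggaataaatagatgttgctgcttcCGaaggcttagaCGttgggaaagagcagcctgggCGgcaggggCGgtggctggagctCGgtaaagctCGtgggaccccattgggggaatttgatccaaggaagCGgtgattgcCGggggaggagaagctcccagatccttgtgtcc
The letters CG, which read the same on both strands, occurred 26 times upstream of WNT7A, 15 times for WNT16, 21 times for FZD8, 20 times for WIF1 and 9 times for FRZB. Of 18922 MANE Select starts, 96.3% had at least 1 CG in this length, with a median of 16 and quartiles of 6 and 23. FRZB was thus below the median and WNT7A above the upper quartile. The other members without a peak lay on both sides of FRZB, with 23 CG upstream of SFRP1, as many as for WNT1, and 3 upstream of DKK4, so FRZB does not stand for all 3.

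Among the ligands, WNT1, a proto-oncogene that also patterns the midbrain, was marked by all 5 targets in at least 1 library. Its PHF19 region (chr12:49370836-49375361, hg19) spanned 4526 bp over the start and most of the short gene, with 175 tags in the PHF19 peak of replicate 1 and a MACS score of 467 in replicate 2. EZH2 peaks there scored 134 and 702, and a SUZ12 peak was present in replicate 2 only, with a score of 117. H3K27me3 peaks scored 1422 and 1185 in shCTR and 822 and 3100 in shPHF19L#4, so the shPHF19L#4 libraries lay on either side of the shCTR ones; exactly 3100 was a frequent score, held by 719 peaks of that last library with 57 above it, so equal scores of 3100 were not compared. The authors' mean log2 concentration of PHF19 was 7.80 beside 6.54 in input. EZH2 was listed at a log2 concentration of 8.01 in shCTR and 9.22 in shPHF19L#4, SUZ12 at 7.17 and 7.97, and MTF2 at 9.75 and 10.62, which are log2 differences of 1.21, 0.80 and 0.87. No H3K27me3 region was listed at WNT1, although all 4 H3K27me3 libraries had a peak over its start.

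WNT10B, which promotes bone formation and restrains fat cell differentiation, starts 6587 bp from WNT1 on the opposite strand. It had no PHF19 region, and its only PHF19 peak was in replicate 2, with a score of 203 against the 467 of WNT1. H3K27me3 peaks at WNT10B scored 369 and 494 in shCTR and 366 and 3100 in shPHF19L#4, again with the shPHF19L#4 libraries on both sides. EZH2 was listed at log2 concentrations of 6.96 and 8.25, a difference of 1.29, and MTF2 at 8.46 and 9.51, a difference of 1.05. The neighbour without a PHF19 region thus had lower shCTR concentrations and larger differences than WNT1 for both targets.

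WNT7A, a dorsal signal of the limb bud and a factor of the female reproductive tract, had peaks in every list but SUZ12 replicate 2. The PHF19 peaks at its start held 93 tags in replicate 1 and scored 767 in replicate 2, the highest replicate 2 score among the members. EZH2 peaks scored 737 and 692, close to each other, and the SUZ12 peak of replicate 1 scored 206. For H3K27me3 the scores were 1549 and 922 in shCTR and 1285 and 3100 in shPHF19L#4. The PHF19 region (chr3:13919316-13922405) had a log2 concentration of 7.06, or 2.14 above input. In shCTR and shPHF19L#4 the log2 concentrations were 7.99 and 9.05 for EZH2, 6.89 and 7.71 for SUZ12 and 9.88 and 10.58 for MTF2. The MTF2 value of 9.88 in shCTR was the highest of any member, and its difference of 0.70 was below the median of 0.88 over all member regions.

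WNT6, an epithelial ligand that can induce kidney tubules, had the lowest log2 concentration of the 7 PHF19 regions at members, 5.40, but the largest difference from input among them, 2.60. The peak was small in replicate 1 (30 tags) and scored 222 in replicate 2, and the midpoint of the region (chr2:219724531-219725652) was in an intron, 564 bp past the start. EZH2 peaks scored 236 and 261, and the SUZ12 peak of replicate 1 scored 51.5, near the lowest score the list holds. WNT6 carried 2 listed EZH2 regions. The one at the start had log2 concentrations of 7.17 in shCTR and 8.37 in shPHF19L#4, and the one 13761 bp downstream had 6.19 and 7.13. MTF2 gave the same arrangement, with differences of 0.90 at the start and 0.73 downstream.

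WNT10A, a ligand of tooth, hair and sweat gland development, follows WNT6 on the same strand with 6618 bp between the genes. It had no PHF19 region and no EZH2 peak in shCTR. Its EZH2 region lay in an intron, 17051 bp past the start, at log2 concentrations of 5.48 and 6.72, the lowest shCTR value for EZH2 among the members. An MTF2 region at the start of WNT10A was listed at 6.28 and 7.20, and an intronic one at 7.51 and 8.37. H3K27me3 peaks at WNT10A scored 94.3 and 173 in shCTR and 198 and 1137 in shPHF19L#4, so both shPHF19L#4 libraries lay above both shCTR ones.

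WNT3A, widely used to activate beta-catenin signalling and required for the tail and hippocampus, had a PHF19 region over its start (chr1:228194632-228196499). Only replicate 2 had PHF19 peaks, with a highest score of 259, and the log2 concentration was 5.99 beside 4.80 in input. EZH2 peaks scored 92.9 and 216. The length under H3K27me3 peaks was 30753 and 14937 bp in shCTR and 14780 and 36722 bp in shPHF19L#4, so the libraries of a condition differed more from each other than the conditions did. At the start EZH2 was listed at log2 concentrations of 7.51 and 8.69 and MTF2 at 9.08 and 9.96. A further region, 31472 bp into the gene for EZH2 and 31305 bp for MTF2, had differences of 1.17 and 0.84, beside 1.18 and 0.88 at the start.

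WNT9A, a ligand of joint formation, starts 59066 bp from WNT3A on the opposite strand. It had no PHF19 region, and none of the EZH2 and SUZ12 lists of shCTR held a peak there. H3K27me3 peaks were in the replicate 2 lists only, with a score of 54.9 in shCTR and 603 in shPHF19L#4. WNT9A had an EZH2 region listed at log2 concentrations of 5.56 and 6.94 and an H3K27me3 region at 6.18 and 7.28. The latter region rests on peaks of replicate 2.

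WNT16, a ligand that maintains cortical bone, had a PHF19 region over its MANE Select start (chr7:120968779-120971195), with 57 tags in replicate 1 and a score of 93.2 in replicate 2. The log2 concentration was 6.26, and 1.34 above input. Neither EZH2 library of shCTR had a peak at WNT16, as at 7 of the 17 members with a listed EZH2 region, and the region was listed at log2 concentrations of 5.73 and 6.86. H3K27me3 peaks scored 131 and 194 in shCTR, while shPHF19L#4 had none in replicate 1 and 1 of score 1252 in replicate 2. WNT16 was the only member with an H3K27me3 region in shCTR and none in shPHF19L#4. Its MTF2 difference of 0.64 was the smallest among the ligands.

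WNT5B, WNT9B and WNT11 had no PHF19 region and were listed higher for at least 3 of the 4 targets. WNT11, which guides cell movements and branching of the kidney duct, had the widest EZH2 region of the members, 8237 bp (chr11:75915308-75923544). PHF19 peaks were present in replicate 2 only, with a highest score of 258. EZH2 was also peaked in replicate 2 only, with a highest score of 233, but its mean log2 concentrations of 8.10 and 9.45 included the highest shCTR value of the members. SUZ12 was listed at 5.79 and 6.87 and MTF2 at 9.82 and 10.83. H3K27me3 scored 209 and 400 in shCTR and 254 and 3100 in shPHF19L#4, with overlap between the conditions.

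WNT9B, which the ureteric bud sends to induce kidney tubules, had replicate 2 peaks of PHF19 (highest score 147) and EZH2 (score 154) and none in replicate 1. Its log2 concentrations in shCTR and shPHF19L#4 were 6.60 and 7.92 for EZH2, 5.96 and 6.89 for SUZ12 and 8.33 and 9.36 for MTF2. H3K27me3 scores were 629 and 402 in shCTR and 365 and 3100 in shPHF19L#4. The neighbouring WNT3, needed for gastrulation and limb outgrowth, runs the other way, with 46 bp between the annotated extents and 32891 bp between the MANE Select starts. WNT3 had an EZH2 region at log2 concentrations of 5.52 and 6.26, and its difference of 0.74 was the smallest for EZH2 at any member.

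WNT5B, a beta-catenin-independent ligand of cartilage, was listed higher for all 4 targets, as was FZD8. Its EZH2, SUZ12 and MTF2 regions lay about the annotated gene start, 98535, 98293 and 98220 bp upstream of the MANE Select start (EZH2 at chr12:1638003-1641720). They were listed at log2 concentrations of 6.37 and 7.79, 5.18 and 6.27, and 7.99 and 8.93. The H3K27me3 region lay elsewhere, 1646 bp past the MANE Select start, at 5.09 and 6.39, and its difference of 1.30 was the largest for H3K27me3 at a member. At that place only replicate 2 of shPHF19L#4 had an H3K27me3 peak, with a score of 292. At the annotated start H3K27me3 had a peak of score 57.0 in replicate 1 of shCTR and of 574 in replicate 2 of shPHF19L#4, and none in the other 2 libraries.

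Of the remaining ligands, WNT2, WNT2B, WNT4 and WNT5A each had a listed region. WNT5A, the prototype of beta-catenin-independent signalling, had log2 concentrations of 6.06 and 7.33 for EZH2 and 8.12 and 9.16 for MTF2, in regions over the start. WNT2, a ligand of lung and placenta, had 6.43 and 7.55 for EZH2 and 8.02 and 8.90 for MTF2. Both WNT2 regions covered its start, had midpoints outside the gene, and also overlapped the interval of CFTR. WNT4, a ligand of the female gonad and kidney, was listed for H3K27me3 at 6.66 and 7.64 and for MTF2 at 6.58 and 7.59. Its H3K27me3 region held a peak in both shCTR libraries but only in replicate 2 of shPHF19L#4, and of the 5 listed H3K27me3 regions only that of FZD8 had a peak in replicate 1 of shPHF19L#4. WNT2B, which acts with WNT2 in lung specification, was listed for H3K27me3 only, at 4.72 and 5.96 in an intron, and had H3K27me3 peaks in replicate 2 of shPHF19L#4 only. WNT7B and WNT8A had a peak in 1 of the 14 lists each and WNT8B in 6, and none of these 3 had a listed region. WNT8B nevertheless had H3K27me3 peaks over its start in every H3K27me3 library. They covered 63% and 23.2% of its interval in shCTR and 48.8% and 62.8% in shPHF19L#4.

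**Figure D3:**
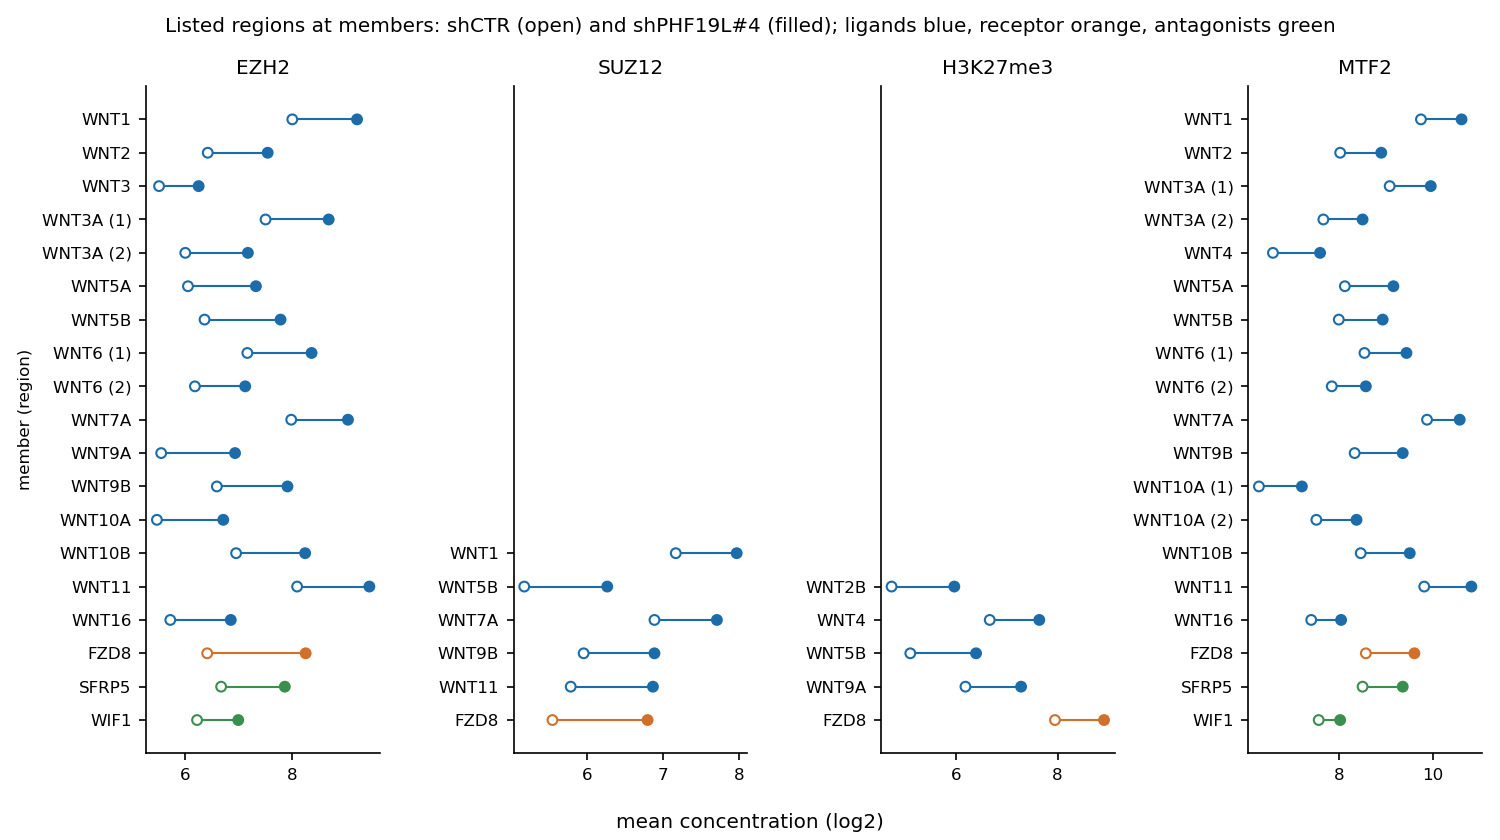
Mean log2 concentration of each listed region at a member in shCTR (open circles) and shPHF19L#4 (filled circles), with a number in brackets where a member had more than 1 region; the values are the authors' means and carry no error. Every filled circle lies to the right of its open circle, by 0.46 to 1.84 on the log2 scale.

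Among the receptors FZD8, whose cysteine-rich domain binds WNT ligands, was the only one with a listed region, and it had one in all 5 tables. Its PHF19 region (chr10:35931305-35933067) lay upstream of the start at a log2 concentration of 5.82, or 1.35 above input, with a peak in replicate 2 only (score 139). Neither EZH2 nor SUZ12 had a peak at FZD8 in any shCTR library. H3K27me3 peaks scored 342 and 249 in shCTR and 725 and 2731 in shPHF19L#4, so both shPHF19L#4 libraries were above both shCTR ones. MTF2 had scores in replicate 2 only, 2045 in shCTR and 3100 in shPHF19L#4. Peaks at exactly 3100 numbered 275 and 1064 over the whole of these MTF2 lists. In the replicate 2 lists of H3K27me3 they numbered 2 and 719, so higher scores were not particular to FZD8. The log2 concentrations in shCTR and shPHF19L#4 were 6.42 and 8.26 for EZH2, 5.55 and 6.80 for SUZ12, 7.95 and 8.92 for H3K27me3 and 8.57 and 9.61 for MTF2. The EZH2 difference of 1.84 was the largest at any member and ranked 53 of 2408 in the table. By shCTR concentration the H3K27me3 region ranked 25 of 1049.

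The other 9 receptors had no PHF19 region and no region in the tables. In the PHF19 list of replicate 2, however, FZD1, FZD3 and FZD7 had peaks with scores of 318, 211 and 194, above the 139 of FZD8. FZD1, expressed in many tissues, had an H3K27me3 region in both conditions that did not reach its start, with scores of 213 and 69.8 in shCTR and 57.7 and 654 in shPHF19L#4. FZD3, a receptor of axon guidance, had the only EZH2 peak of the class, in replicate 2 with a score of 61.8. FZD4, the norrin receptor of retinal vessels, and FZD7, a receptor of intestinal stem cells, had peaks in 4 and 5 lists, all from replicate 2. FZD2, FZD5, FZD9 and FZD10 had a peak in 1 list each and FZD6, a planar polarity receptor, in 2.

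The antagonists with listed regions were WIF1 and SFRP5. WIF1, which binds WNT ligands through its own domain, had a PHF19 region over its start (chr12:65514028-65515622) at a log2 concentration of 5.62, or 1.62 above input. Its PHF19 and EZH2 peaks were in replicate 2 only, with scores of 255 and 75.5. H3K27me3 peaks lay along the gene, with 29610 and 5477 bp under peaks in shCTR and 21639 and 30468 bp in shPHF19L#4. The conditions overlapped, and replicate 2 of shCTR was the low library. EZH2 was listed at log2 concentrations of 6.23 and 7.00 and MTF2 at 7.56 and 8.02, and the MTF2 difference of 0.46 was the smallest at any member. SFRP5, a Frizzled-related decoy, lacked a PHF19 region but had a replicate 2 PHF19 peak with a score of 394. H3K27me3 at SFRP5 scored 986 and 592 in shCTR and 787 and 3100 in shPHF19L#4, and the log2 concentrations were 6.68 and 7.87 for EZH2 and 8.50 and 9.36 for MTF2.

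SFRP1 and FRZB, both Frizzled-related proteins, and DKK4, a Dickkopf that binds LRP co-receptors, had no peak in any of the 14 lists and no listed region. SFRP2 had 1 peak, of H3K27me3 in replicate 2 of shPHF19L#4, with a score of 60.7. DKK1, an antagonist secreted by prostate cancer cells in bone, had MTF2 peaks in replicate 2 of both conditions and a PHF19 peak in replicate 2 with a score of 56.2. SFRP4 and DKK3, the latter a divergent Dickkopf, had peaks in 3 lists each, all from replicate 2. DKK2, the member with the longest annotated gene, had H3K27me3 peaks in 3 of the 4 libraries and an H3K27me3 region in shPHF19L#4 but not in shCTR.

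By length under peaks the H3K27me3 libraries did not order by condition. Peak length is not the measure of the paper, which reports an H3K27me3 increase in both replicates on signal scaled by fly reads. Summed over the 19 ligands, the length under peaks was 117.5 kb and 62.0 kb in shCTR and 99.0 kb and 152.2 kb in shPHF19L#4. The antagonists gave 38.4 kb and 10.9 kb in shCTR and 31.7 kb and 58.7 kb in shPHF19L#4, and the receptors, with far less under peaks, gave 8.0 kb and 3.6 kb in shCTR and their highest value in replicate 2 of shPHF19L#4. In all 3 classes replicate 1 was lower and replicate 2 higher in shPHF19L#4 than in the shCTR library of the same number. Over the whole genome the lists covered 108 and 30.4 Mb in shCTR and 96.9 and 159 Mb in shPHF19L#4, which is the same order of libraries but not the same proportions. Whether the lengths at members reflect how much was called in each library was not tested.

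**Figure D4:**
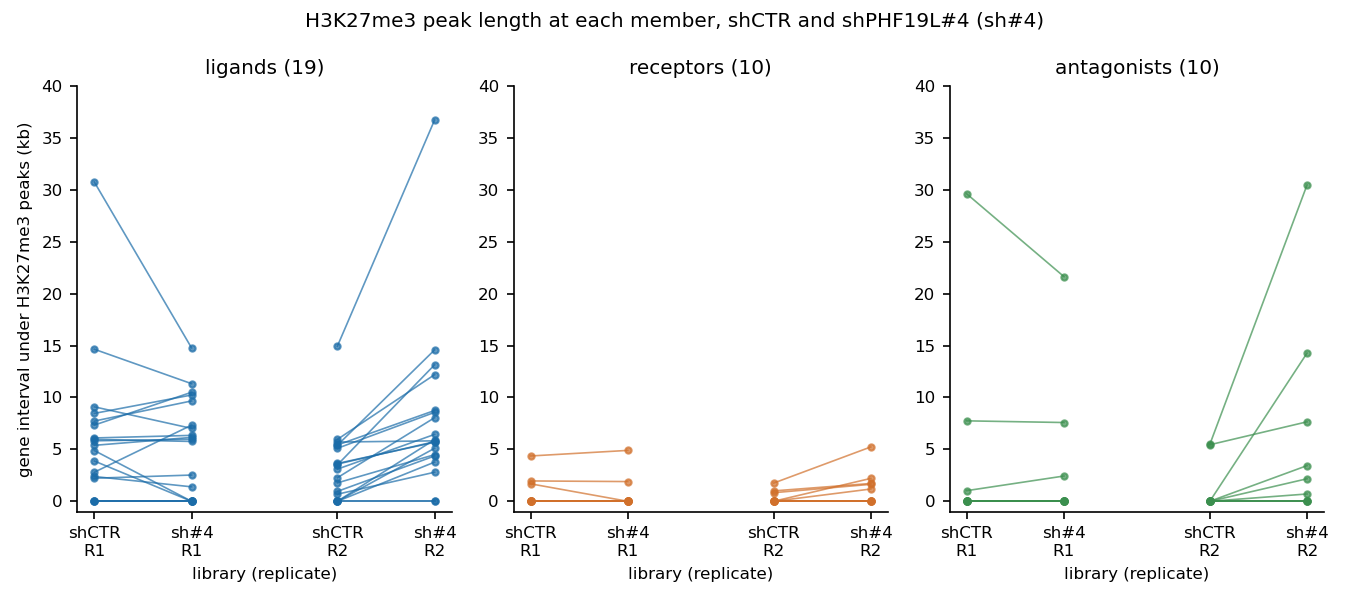
Length of each member's interval under H3K27me3 peaks (kb) in the 4 libraries, by class; lines join the values of a member in libraries with the same replicate number. WNT3A and WIF1 had the longest stretches in replicate 1 of shCTR (30753 and 29610 bp) and in replicate 2 of shPHF19L#4 (36722 and 30468 bp).

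Set beside all listed regions, the median differences at members were of similar size. Both medians cover only regions under the authors' p threshold for that comparison, so they do not show how members changed beside other genes. The median log2 difference over the 19 EZH2 regions at members was 1.20, beside 1.16 over all 2408 regions. For MTF2 it was 0.88 over 19 regions, beside 0.87 over 2546. SUZ12 gave 1.01 over 6 regions, beside 0.96 over 508, and H3K27me3 gave 1.10 over 5 regions, beside 1.13 over 1049. By class the EZH2 median was 1.21 for the 16 regions of ligands, with 1.84 for the region of FZD8 and 0.77 and 1.19 for those of WIF1 and SFRP5. Lower regions were rare in the tables, with 1 of EZH2, none of SUZ12, 1 of H3K27me3 and 7 of MTF2, and none was at a member. Against input, PHF19 at the 7 members had a median log2 difference of 1.35, beside 1.58 over the 1245 regions of its table, and a median log2 concentration of 5.99, beside 6.42.

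Members with and without a PHF19 region could be set side by side. All 7 with a PHF19 region had an EZH2 region and an MTF2 region listed higher, beside 10 and 9 of the 32 without. Over all genes this was 86.0% and 82.6% of the 936 with a PHF19 region and 5.81% and 5.43% of the others, so 7 of 7 was close to what PHF19-marked genes showed at large. An H3K27me3 region in shCTR was at 7 of 7 and at 10 of 32, beside 88.0% and 9.53% over all genes. H3K27me3 regions listed higher were at 1 of the 7 (FZD8) and at 4 of the 32 (WNT2B, WNT4, WNT5B and WNT9A), beside 9.19% and 3.25%. These are counts and were not tested.

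The other WNT pathway genes were counted in the same way, from lists of 21 co-receptors, secretion factors and outer modulators and 18 intracellular genes. A PHF19 region lay at 5 outer genes (NOTUM, RSPO1, RSPO3, LGR5 and LGR6) and at 4 intracellular ones (APC2, TCF7L2, LEF1 and NKD1), together 23.1% of the 39, against 4.64% of all genes. Regions were listed higher at 10 outer and 5 intracellular genes for EZH2, at 3 and 2 for SUZ12, at 1 and 2 for H3K27me3 and at 8 and 5 for MTF2, against 9.54%, 2.44%, 3.53% and 9.01% of all genes. NOTUM, an enzyme that removes the lipid of WNT proteins, had log2 concentrations of 7.93 and 9.54 for EZH2, 6.66 and 7.91 for SUZ12 and 9.49 and 10.68 for MTF2. LEF1, a transcription factor at the end of the pathway, had the highest PHF19 log2 concentration of the 2 lists, 8.85 beside 6.18 in input, with 8.13 and 9.10 for EZH2. The beta-catenin gene CTNNB1 and its destruction complex genes APC, AXIN1, GSK3A and GSK3B had no listed region. AXIN2, a feedback target of beta-catenin, was listed at 6.72 and 7.97 for EZH2 and at 8.14 and 9.11 for MTF2.

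By median, CpG content around the starts was highest in the receptors. Within ligands the median was higher at those with a PHF19 region, but the ranges overlapped and no test was run. Within 500 bp to each side of the annotated gene start the median was 7.00 CpG per 100 bp for ligands, 10.20 for receptors and 5.55 for antagonists, beside 5.80 over the 20140 protein-coding genes with known bases there. The 7 members with a PHF19 region had a median of 10.70, from 1.00 at WNT16 to 12.60 at WNT3A, and the 32 without had 7.35. Over all 936 genes with a PHF19 region the median was 7.55. Within ligands the 5 with a PHF19 region had 10.70 (1.00 to 12.60) and the 14 without had 4.70 (0.60 to 15.00). Around the MANE Select start these medians were 10.70 and 8.05. The 9 receptors without a PHF19 region had 10.10 at the gene start. Around the MANE Select start the median for members with a PHF19 region was again 10.70 and for those without 8.80, and WNT16 had 4.20. GC content gave the same order of classes, with medians of 61.9% for ligands, 70.9% for receptors and 61.8% for antagonists, beside 59.2% for all genes. The gap between ligands and receptors depended on the start used: around the MANE Select start the CpG medians were 9.0, 10.50 and 7.25 per 100 bp for ligands, receptors and antagonists, and the GC medians 70.3%, 70.8% and 63.0%.

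**Figure D5:**
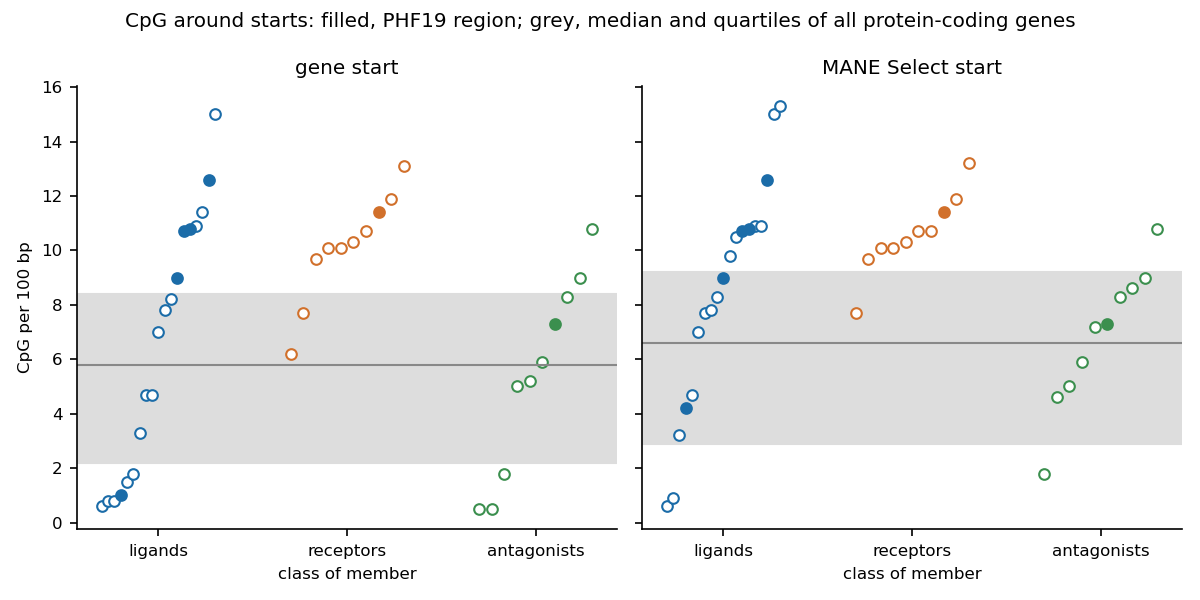
CpG per 100 bp within 500 bp of the annotated gene start (left) and of the MANE Select start (right) for each member by class, filled where the member had a PHF19 region; the grey line and band are the median and quartiles of all protein-coding genes. Most receptors lie above the band at the gene start, and among receptors only FZD8 is filled.

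These counts rest on 1 cell line, 1 hairpin and 2 replicates per target. The lists of the 2 replicates differed in length, many times over for PHF19, SUZ12 and MTF2. Most counts of members that could be run by replicate changed with the replicate used. What part sequencing depth or peak calling had in these counts was not tested. The tables list only regions under the authors' threshold, and the concentrations are means without a spread, so neither the absence of a region nor the size of a difference could be judged. Nearly all listed regions of the genome had the larger mean in shPHF19L#4, and how the concentrations were scaled was not stated. Expression of the WNT genes was not analysed here, because the data used hold no RNA-seq values. The paper reports RNA-seq results, with WNT7A among the upregulated PHF19L targets.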

How the data were processed

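The authors mapped reads with Bowtie to hg19, or to hg19 and dm3 where fly chromatin was added, ran MACS separately for the replicates, with controls, and then DiffBind; no versions were stated. Peak values are the deposited MACS score, except that replicate 1 of PHF19 holds a deposited count of tags and replicate 1 of MTF2 positions only. Table values are the authors' mean log2 concentrations; where 2 header lines name column 8 differently, the second (Conc_KD) was used. The tables' columns of fold, p and FDR hold the authors' own comparison and were not used. Starts and extents came from GENCODE release 44 lifted to GRCh37. Peaks overlapping by 1 bp or more were merged. Overlaps were checked on simulated intervals.

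Members and lists were chosen with earlier results of these data known. By rule, up to 12 members with a PHF19 region, members without one but listed higher for at least 3 of 4 targets, members without any peak, and neighbours within 200 kb were described; other named genes were chosen after their values were seen. Alternatives covered replicates, a score of at least 100, the interval and the difference. The depth of the libraries is unknown. Python 3.11.15, numpy 2.4.6, pandas 2.3.3, pysam 0.24.0, samtools 1.23.1 and matplotlib 3.10.9 were used.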

Additional observations from a re-analysis of the deposited data

How the results depend on the processing

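Among counts of members that could be run by replicate, most depended mainly on which replicate was used. For H3K27me3 in shCTR the count of 17 moved only to 19 without replicate 1 and to 21 without replicate 2. With a peak in either replicate the counts were 11 for EZH2, 3 for SUZ12 and 31 for MTF2 in shCTR. In shPHF19L#4 they were 28 for H3K27me3 and 30 for MTF2. The share of all genes was not counted for this setting, so these counts have no background beside them. Replicate 2 alone had MTF2 peaks at 49.5% of all genes in shCTR and at 51.0% in shPHF19L#4. With either replicate left out the counts ranged from 4 to 26 for PHF19, 4 to 11 for EZH2, 1 to 2 for SUZ12 and 10 to 31 for MTF2 in shCTR, and from 18 to 28 for H3K27me3 and 16 to 30 for MTF2 in shPHF19L#4; the cause was not tested. PHF19 was at 4 members when a MACS peak of both replicates was required. A difference of at least 1 left 3 members for SUZ12, 3 for H3K27me3 and 6 for MTF2. Searching 2.5 kb to each side of the start gave 3 members with a higher H3K27me3 region, and median log2 differences of 1.21 for EZH2, 1.08 for SUZ12, 0.98 for H3K27me3 and 0.91 for MTF2. Averaging within members first gave medians of 1.21 for EZH2 and 0.89 for MTF2, and taking the region nearest to the start gave 1.21 and 0.91. With the extent of the MANE Select transcript, chosen after seeing the data, the medians were 1.19 for EZH2, 0.88 for SUZ12 and 1.04 for H3K27me3, and CpG per 100 bp at members without a PHF19 region was 8.80. Every region at a member was listed higher, so no setting could turn the sign of a median. The order of the conditions did not hold for counts: MTF2 went from 10 members in shCTR to 16 in shPHF19L#4, but from 31 to 30 without replicate 1 or with a peak in either replicate, and H3K27me3 from 17 to 18, but from 21 to 18 without replicate 2. Of the 104 alternative values, 74 were within 1.5 times the main count or equal to the main median. An interval without the upstream part, at least 50% of the region inside the interval, and regions of no other gene moved no count by more than 1.5 times. Nor did a score of at least 100 for EZH2 and H3K27me3; this cut says nothing on MTF2, whose replicate 1 lists set the counts and hold no score, and the SUZ12 count of 0 could not fall under any stricter setting. No paired analysis was run. The tables hold no value per replicate. Libraries behind the peak lists share replicate numbers across conditions, and the paper used replicate as a block in DiffBind against controls. Values of the same number were only set side by side. Without values per replicate in the tables the counts and medians of higher regions could not be run without each replicate.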

Other observations

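These values were chosen after the data were seen. In the H3K27me3 table the region with the highest shCTR concentration of all 1049 lay at APC2, an intracellular relative of the APC tumour suppressor, at log2 concentrations of 9.69 in shCTR and 10.72 in shPHF19L#4, though centred 19477 bp past the start and also overlapping the interval of C19orf25; the region at NKD2, an inhibitor of Dishevelled, ranked 15 at 8.21 and 9.25, and that at FZD8 ranked 25.

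APC2 was also listed for SUZ12 at 7.33 and 8.86, a difference of 1.53 that ranked 15 of 508, and for EZH2 in 3 regions, of which the one 19327 bp past its start had 8.38 and 10.20; these SUZ12 and EZH2 regions overlap the interval of C19orf25 as well.

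At DKK2, whose annotated start lies 247493 bp from its MANE Select start, H3K27me3 peaks numbered 1 and 0 in the shCTR libraries and 2 and 11 in the shPHF19L#4 libraries, with 1025, 0, 2435 and 14276 bp under peaks.

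Of the members with a region listed higher, 7 of 17 for EZH2 (WNT3, WNT5A, WNT9A, WNT10A, WNT10B, WNT16 and FZD8) and 4 of 6 for SUZ12 (WNT5B, WNT9B, WNT11 and FZD8) had no peak of that protein in either shCTR library. Over all genes with such a region this was 45.0% for EZH2 and 65.2% for SUZ12, so for these 2 proteins it was common. For H3K27me3 it was 1 of 5 members (WNT2B) and 41.4% of all genes, and WNT5B also had no shCTR peak in its listed region, only one at its annotated start, and for MTF2 it was rare, at 0 of 16 members and 1.27% of all genes.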
